A study of Mus musculus with 2 samples.

Results

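The transcripts described here are those of the mouse mitochondrial genome in MEL cells, an established line of mouse erythroleukemia cells. They are the 37 genes annotated on the mitochondrial chromosome of mm10, all with symbols that start with mt-, out of 43346 genes in each deposited gene table. They comprise 13 protein genes, 2 rRNA genes and 22 tRNA genes, and 28 of them lie on the plus and 9 on the minus strand of the annotation. Both libraries came from cells held for 5 days in 2% dimethyl sulfoxide (DMSO), an agent that drives these cells towards the red cell fate. PolyA RNA was read from 1 end, and no untreated cells were analysed here, so every value describes the treated state. Both libraries carry 1 cell sample identifier in the labels, so whether their cultures were separate is not settled, and with 1 group of 2 libraries no difference was tested. The libraries held 26149725 and 14149299 estimated reads in replicates 1 and 2. In both libraries all 8 erythroid marker genes reached 1 TPM (transcripts scaled to length and to the library total), with a summed 20558 and 35400 TPM. Of 13 markers of other blood and stromal cells none reached it in both, and Cd3e, a T cell marker, reached it in 1 library, with 2.05 and 0.58 TPM. The sum of the 13 was 4.13 and 1.61 TPM, and Cpa3, Dcn, Elane and S100a8 were at 0 in both.

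The mitochondrial genome is a small circle that is transcribed from both strands into long precursors, and tRNA sequences between the other genes mark where the precursors are cut. Its proteins are core subunits of respiratory complexes I, III and IV and of ATP synthase, and its rRNAs and tRNAs serve to translate them inside the organelle. A mitochondrial polyA polymerase adds short tails to the messages, in some of them completing the stop codon. In red cell precursors mitochondria carry out steps of heme synthesis, and they are cleared as the red cell matures.

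The ends of annotated protein genes are shown first because in some messages the tail completes the stop codon. Where the messages themselves end was not examined. Each line gives the last 24 bases of the annotated gene, 5′ to 3′ on the gene's own strand, with the stop in capitals. The coordinates on mm10 are chrM:9367-9390 for mt-Co3, chrM:11521-11544 for mt-Nd4, chrM:15265-15288 for mt-Cytb, chrM:6849-6872 for mt-Co1 and, on the minus strand, chrM:13552-13575 for mt-Nd6. These and all sequences below were read from the GENCODE M21 transcripts.
mt-Co3: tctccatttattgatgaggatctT
mt-Nd4: aactaattacaggcctgacaataT
mt-Cytb: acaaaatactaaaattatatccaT
mt-Co1: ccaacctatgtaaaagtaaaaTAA
mt-Nd6: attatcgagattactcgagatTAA
In mt-Co3, mt-Nd4 and mt-Cytb the annotated gene ends 1 base into the stop codon. The other 10 protein genes end in a whole stop, TAG in mt-Nd1 and mt-Nd2 and TAA in the rest.

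The gene mt-Atp8 is shown whole because it had the highest TPM and FPKM of the 37 genes in both libraries and because its last 43 bases, in capitals, are also the first bases of mt-Atp6. It lies at chrM:7766-7969 on the plus strand and is 204 bases long.
mt-Atp8: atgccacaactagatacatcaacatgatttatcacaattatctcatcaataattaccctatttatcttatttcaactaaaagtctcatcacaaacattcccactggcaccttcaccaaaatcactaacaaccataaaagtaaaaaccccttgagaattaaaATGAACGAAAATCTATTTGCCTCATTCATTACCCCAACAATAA
The genes mt-Nd4l and mt-Nd4 overlap by 7 bases on the same strand, and mt-Nd5 and mt-Nd6 by 14 bases on opposite strands.

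In chromosome order the map opens on the plus strand with the small and large rRNA genes, mt-Rnr1 (chrM:70-1024) and mt-Rnr2 (chrM:1094-2675), each beside tRNA genes. The complex I genes mt-Nd1 (chrM:2751-3707) and mt-Nd2 (chrM:3914-4951) follow, then the complex IV genes mt-Co1 (chrM:5328-6872) and mt-Co2 (chrM:7013-7696). Next come the ATP synthase genes, mt-Atp8 and mt-Atp6 (chrM:7927-8607), with mt-Co3 (chrM:8607-9390) overlapping the last base of mt-Atp6. A second run of complex I genes holds mt-Nd3 (chrM:9459-9806), mt-Nd4l (chrM:9877-10173), mt-Nd4 (chrM:10167-11544) and mt-Nd5 (chrM:11742-13565). mt-Nd6 (chrM:13552-14070) lies on the minus strand, and mt-Cytb (chrM:14145-15288) is the last protein gene on the plus strand. The annotation gives each of these genes as 1 exon with no intron.

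The 37 genes held 2337512 of the estimated reads in replicate 1, a share of 8.94% (exact 95% binomial interval 8.93% to 8.95%). In replicate 2 they held 976410 reads, a share of 6.90% (6.89% to 6.91%). These intervals cover counting error only, and they do not overlap. Protein genes held 88.0% and 96.1% of the mitochondrial reads in replicates 1 and 2, rRNA genes 11.8% and 3.63%, and tRNA genes 0.193% and 0.273%. The 9 minus-strand genes held 2.20% and 5.02%. These shares leave out the reads on nuclear copies of protein genes, described below. With those added, protein genes held 92.6% and 97.5%, rRNA genes 7.33% and 2.29%, and minus-strand genes 1.37% and 3.17%. By read count mt-Atp8 took 17.9% and 21.6% of the mitochondrial reads, but it took 59.3% and 61.3% of the mitochondrial TPM, since TPM divides reads by length and the gene is short. The effective length used is 44 bases less than the gene, and with the annotated 204 bases in its place the mean level was 89245 TPM against 102299 TPM. The read and TPM shares of mt-Atp8 also leave out the copies, which held 9.53% and 7.11% of all TPM. The 37 genes held 18.2% and 15.7%. Adding the copies would lower the shares of mt-Atp8, which has no copy among the annotated genes by the limits given below. Its last 43 bases, shared with mt-Atp6, do occur in the copy of mt-Atp6. Nuclear sequence outside annotated transcripts was not searched, so copies of mt-Atp8 there were not examined.

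For several protein genes the deposited value counts only some of the reads that match the gene. The annotation holds 11 nuclear genes, all pseudogenes, that are at least 95% identical to the mitochondrial genome over at least 80% of their length. Of these, 7 lie in a row on the minus strand of chromosome 1, from 24611535 to 24616197, in the same order as on the mitochondrial chromosome, from the end of mt-Co1 to the start of mt-Nd4. Reads from an identical stretch cannot be placed on 1 of the 2 loci by sequence. The copies together held 1424387 and 572352 estimated reads in replicates 1 and 2, which was 37.9% and 36.96% of the reads of mitochondrial genes plus copies. The chromosome 1 row held 97.4% and 80.5% of the copies' reads.

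The split between gene and copy was uneven. Complex IV subunit gene mt-Co2 had 16487 and 1710 estimated reads in replicates 1 and 2, against 820390 and 135319 for its copy Gm28661 (chr1:24614885-24615565, 100% identical). The gene therefore held 1.97% and 1.25% of the reads of the gene and its copies. In mt-Atp6, the membrane subunit of ATP synthase, the gene had 28332 and 29321 reads and Gm10925 (chr1:24613974-24614651, 100% identical) 427780 and 266494. For mt-Co3, another complex IV subunit, the gene had 9.02 and 9.55 reads and Gm28437 (chr1:24613189-24613971, 100% identical) 59271 and 37262. In these 3 genes at least 99.5% of all 45-base windows also occur in a nuclear transcript of the annotation, 45 bases being the fragment length that the deposited effective lengths imply.

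The complex I subunit gene mt-Nd3 had 7770 and 690 reads in replicates 1 and 2 and Gm28438 (chr1:24612775-24613119, 99.7% identical) 7635 and 2989, so that the gene held 50.4% and 18.8% of the reads. The catalytic complex IV subunit gene mt-Co1 held 90.01% and 90.4%, with 71541 and 18825 reads on Gm29216 (chr1:24615706-24616197), which matches only its last part. Shared sequence did not by itself go with a low share. In mt-Nd4l 98.8% of the windows also occur in a nuclear transcript, yet the gene held 99.1% and 100% of the reads. In mt-Nd4 62.4% of the windows are shared, and the gene held 99.9% and 100%. Both belong to complex I, and their copies, Gm10222 with 63.3 and 0 reads and Gm28439 with 456 and 0, lie at the end of the chromosome 1 row. No window of mt-Nd1, mt-Nd6, mt-Atp8, mt-Rnr1 or any tRNA gene occurs in a nuclear transcript. Nuclear sequence outside annotated transcripts was not searched.

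**Figure D1:**
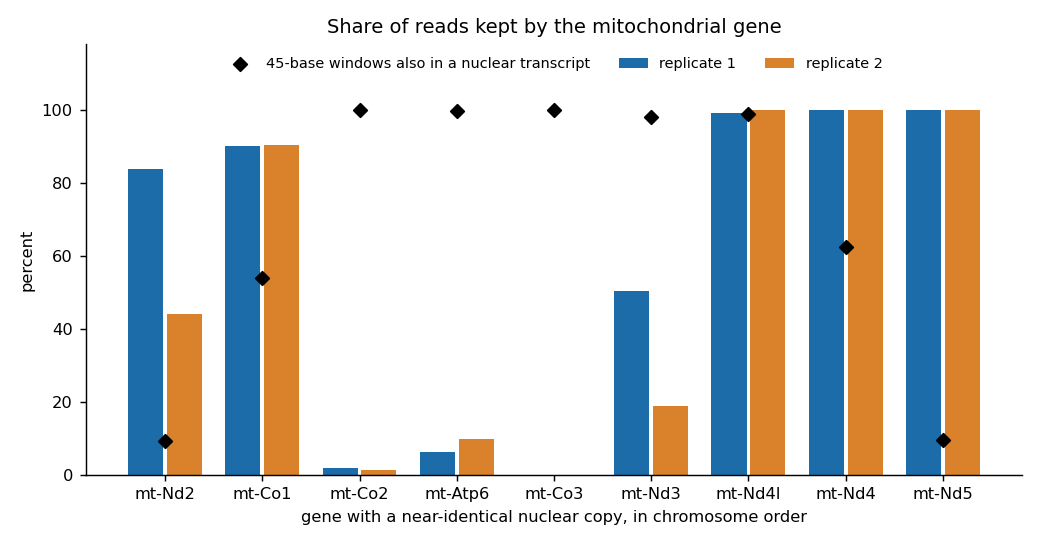
Bars give the percent of the estimated reads of a mitochondrial gene and its nuclear copies that was assigned to the mitochondrial gene, for replicates 1 and 2, in the 9 genes with a copy. Diamonds give the percent of the gene's 45-base windows that also occur in a nuclear transcript. mt-Co2, mt-Atp6 and mt-Co3 have bars under 10% and diamonds near 100%, while mt-Nd4l has bars of 99.1% and 100% with a diamond at 98.8%.

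The deposited posterior estimates carried this uncertainty. The posterior mean for mt-Co2 was 210381 reads with a posterior SD of 185459 in replicate 1 and 36960 with an SD of 32374 in replicate 2, far above its expected counts. For mt-Atp6 the posterior means were 141987 and 128754 reads, with SDs of 110476 and 84487. For mt-Co3 they were 19551 and 11867, with SDs of 16919 and 10504. Upper over lower credibility bound of the TPM was 16.2-fold and 19.1-fold in mt-Co2, 9.71-fold and 7.07-fold in mt-Atp6 and 23.5-fold and 19.5-fold in mt-Co3. By contrast the ratio was at most 1.06-fold in either library for the other protein and rRNA genes except mt-Nd3, where it was 1.17-fold and 2.21-fold.

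A second kind of copy differed in sequence from its gene. Gm13339 on chromosome 2 (chr2:22590024-22590533, minus strand) matches the last part of mt-Nd2, a complex I subunit gene, with 17 differences in 510 bases. It had 36173 and 111167 reads in replicates 1 and 2, against 186769 and 87602 for mt-Nd2. The copy thus had 0.194 times the reads of the gene in replicate 1 and 1.27 times in replicate 2, and its log2 ratio of replicate 2 over replicate 1 was 2.25. The stretch of 120 bases with the most differences is shown, with the 7 differences in capitals, at chrM:4575-4694 for the gene and chr2:22590281-22590400 for the copy.
mt-Nd2: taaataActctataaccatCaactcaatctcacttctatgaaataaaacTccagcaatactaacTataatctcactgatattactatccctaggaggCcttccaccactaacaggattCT
Gm13339: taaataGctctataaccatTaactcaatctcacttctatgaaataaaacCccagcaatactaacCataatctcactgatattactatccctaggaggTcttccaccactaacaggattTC
Of the 466 windows of 45 bases in Gm13339, 91 also occur in the mitochondrial genome. From which locus the reads on Gm13339 came was not tested.

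Because of these splits, each gene's level is given below with the reads of its copies added, per kilobase of the gene's effective length scaled to the total of estimated reads (the FPKM scale). Over the gene and these copies the sum is the most that the gene could hold. For copies that match part of a gene it spreads their reads over the whole gene. Other nuclear transcripts also share windows with some genes, such as 21 of 1538 windows in mt-Rnr2, and their reads are not in the sum.

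Both subunits of ATP synthase were among the 3 highest of the 15 protein and rRNA genes. mt-Atp8, a small membrane subunit, stood at 100251 and 93279 FPKM in replicates 1 and 2, the highest value in both. mt-Atp6, which forms part of the proton channel, stood at 27382 and 32821 FPKM with its copy and at 1701 and 3253 without. The ratio of mt-Atp8 to mt-Atp6 was 3.66 and 2.84 with the copy, and 58.9 and 28.7 without it. The 2 genes are known to be read from 1 shared message.

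The complex IV genes differed in how alike the libraries were. mt-Co2 stood at 50045 and 15156 FPKM in replicates 1 and 2 with its copies, and mt-Co1 at 18355 and 9274. mt-Co3 stood at 3063 and 3560 FPKM with its copy and was near the detection floor without it, at 0.50 and 0.94 TPM. mt-Co2 and mt-Co1 were thus lower in replicate 2, and mt-Co3 was not. The level of mt-Co2 was 2.73 and 1.63 times that of mt-Co1 in the 2 libraries. Complex IV genes held 42.99% and 23.99% of all mitochondrial reads when copies were included.

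The only complex III gene of the mitochondrial genome, mt-Cytb, which encodes cytochrome b, stood at 5520 and 5850 FPKM. Just 3 of its 1100 windows occur in a nuclear transcript, so its value hardly depends on copies.

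The 7 complex I genes spanned 1052 to 9622 FPKM in replicate 1 and 855 to 14133 in replicate 2. mt-Nd4 was at 9622 and 9571 FPKM, mt-Nd2 at 8577 and 14133, and mt-Nd1 at 4936 and 4337. Without its copy Gm13339, mt-Nd2 stood at 7185 and 6229 FPKM, below mt-Nd4 in both libraries. mt-Nd5 was at 1802 and 1793 FPKM and mt-Nd3 at 1938 and 855. The closest agreement between libraries was in mt-Nd4 and mt-Nd5, which are next to each other among the protein genes and both encode proton-pumping subunits. mt-Nd4l stood at 1052 and 2900 FPKM, so that mt-Nd4 was 9.14 and 3.30 times higher than the gene it overlaps. These 2 genes too are known to share a message. Complex I genes held 22.1% and 34.9% of mitochondrial reads with copies included.

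mt-Nd6 is the only protein gene on the minus strand. It stood at 3817 and 6908 FPKM, above mt-Nd5, which overlaps its end on the other strand, by 2.12 and 3.85 times. In human cells the message of this gene is known to carry little or no polyA tail. Whether the libraries kept the strand is not stated in the labels. Reads from mt-Nd6 and from RNA of the opposite strand across it cannot be told apart.

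The 2 rRNA genes had the most unequal values among long genes without copies. mt-Rnr1, the small-subunit rRNA, stood at 2113 and 535 FPKM and mt-Rnr2, the large-subunit rRNA, at 5603 and 1313. Both were lower in replicate 2, while their ratio, mt-Rnr2 over mt-Rnr1, was 2.65 and 2.45. In replicate 2 mt-Nd4 exceeded mt-Rnr2 by 7.29 times, and in replicate 1 by 1.72 times.

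By mean level with copies the order ran mt-Atp8, mt-Co2, mt-Atp6, mt-Co1, mt-Nd2, mt-Nd4, mt-Cytb, mt-Nd6, mt-Nd1, mt-Rnr2, mt-Co3, mt-Nd4l, mt-Nd5, mt-Nd3 and mt-Rnr1. Neighbours in this order were apart in both libraries at 4 places only, namely below mt-Atp8, mt-Atp6, mt-Nd4 and mt-Co3. At every other place the values of neighbours overlapped between the libraries. The 3 genes with an incomplete stop were spread through the order, with mt-Nd4 sixth, mt-Cytb seventh and mt-Co3 eleventh.

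**Figure D2:**
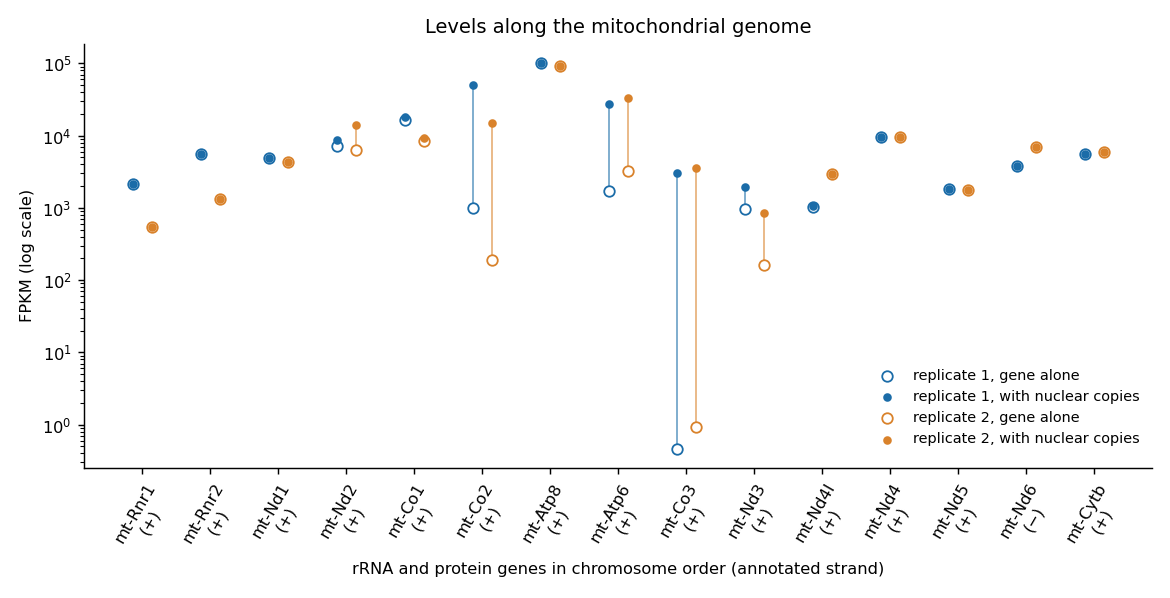
Level of the 15 protein and rRNA genes in chromosome order on a log FPKM axis, for replicate 1 (blue) and replicate 2 (orange). Open circles are the gene alone, filled points add its nuclear copies, and a line joins the pair. mt-Atp8 is highest in both libraries, and mt-Co3 moves from under 1 to 3063 and 3560 FPKM when its copy is added.

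The tRNA genes are 59 to 75 bases long and were hardly represented. The labels give a size range above 175, with no unit, for these libraries. The 22 genes held 4503 and 2662 estimated reads in replicates 1 and 2. At least 1 read in both libraries was found for 16 of them, 9 of 14 on the plus strand and 7 of 8 on the minus strand. mt-Tp, the proline tRNA gene, had 0 reads in both, which allows up to 0.115 and 0.212 CPM (counts scaled to the library total; 3 counts of the total), and 6 tRNA genes had 0 in replicate 2.

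Reads on tRNA genes lay mostly in minus-strand genes, which had 4066 and 2602 reads against 437 and 60 for plus-strand genes. The median gene had 142.5 and 38.5 reads on the minus strand and 10 and 2.5 on the plus strand. mt-Te, the glutamate tRNA gene, alone had 3023 and 2273 reads. It lies next to mt-Nd6 on the same strand with no base between them, and its level was 1.21 and 0.930 times that of mt-Nd6. At this length a read can start at only 25 positions inside the gene.

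The next highest by mean TPM was mt-Ts1, a serine tRNA gene, with 408 and 159 reads. It overlaps the end of mt-Co1 by 3 bases on the opposite strand, and its level was 0.0378 and 0.0536 times that of mt-Co1 alone. Both sequences are shown on the strand of the tRNA with the anticodon in capitals, at chrM:14071-14139 and chrM:6870-6938, since these 2 genes held most of the tRNA reads.
mt-Te: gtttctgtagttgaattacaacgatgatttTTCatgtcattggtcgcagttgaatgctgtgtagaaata
mt-Ts1: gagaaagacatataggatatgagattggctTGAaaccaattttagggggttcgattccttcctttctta
The tyrosine tRNA gene mt-Ty had 232 and 72 reads, the asparagine gene mt-Tn 132 and 47, and the cysteine gene mt-Tc 153 and 10, all 3 from a run of neighbouring tRNA genes on the minus strand between mt-Nd2 and mt-Co1. The sixth, mt-Tg (glycine), lies on the plus strand between mt-Co3 and mt-Nd3 and had 142 reads in replicate 1 but 2 in replicate 2. The other 16 tRNA genes had 0 to 123 reads in replicate 1 and 0 to 30 in replicate 2. Without strand information, reads on a tRNA gene and on uncut RNA of the opposite strand cannot be told apart.

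**Figure D3:**
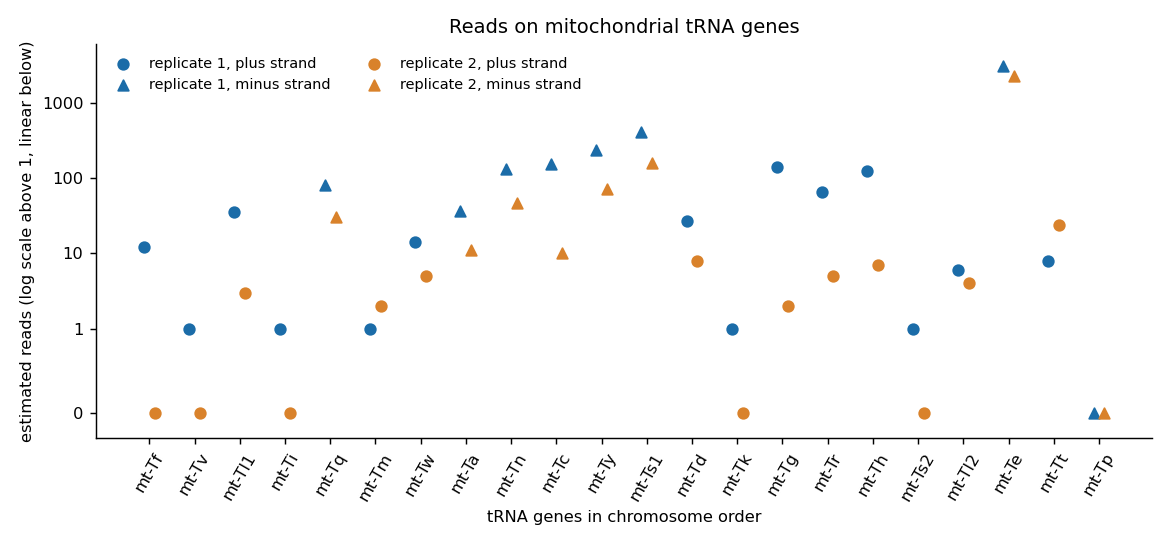
Estimated reads on the 22 tRNA genes in chromosome order, on an axis that is logarithmic above 1 read and linear below. Circles are plus-strand and triangles minus-strand genes, blue replicate 1 and orange replicate 2. mt-Te stands at 3023 and 2273 reads, and mt-Tp is at 0 in both.

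Between the libraries, 27 of the 37 genes had a mean of at least 10 estimated reads and so entered the comparison of replicate 2 with replicate 1, scaled by TMM (trimmed mean of M values) over all genes. mt-Co3 and 9 tRNA genes did not. Of the 27, 13 were at least 2-fold lower and 2 at least 2-fold higher in replicate 2. Over all 13509 genes in the comparison 31.5% differed at least 2-fold, 16.5% lower and 15% higher. The median log2 ratio was -0.84 over the 27 members and 0.01 over all genes. Scaling by the total of reads moved the median of all genes from 0.01 to 0.25 and the share of 2-fold calls that were higher from 47.5% to 65.9%. It left 9 members lower and 2 higher. With the trend of the ratio against GC content removed, described below, 6 of the 27 were lower and 9 higher, with a median of 0.59. With copies added as well, 4 of 28 were lower and 11 higher. The 31.5% over all genes is from before that removal. No share over all genes is given for any count with the trend removed, here or below. Those counts therefore have no background to be read against.

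At least 2-fold differences were found in 4 of 12 protein, 2 of 2 rRNA and 9 of 13 tRNA genes, and with the GC trend removed in 9 of 12, 0 of 2 and 6 of 13. Before that removal, of 12 protein genes in the comparison 3 were at least 2-fold lower in replicate 2, with log2 ratios of -1.23 for mt-Co1, -2.63 for mt-Co2 and -2.86 for mt-Nd3, and mt-Nd4l was higher with 1.22. With copies included mt-Co2 stood at -1.98, mt-Nd3 at -1.43 and mt-Nd4l at 1.21. The sign for mt-Nd2 turned from -0.46 to 0.47 when Gm13339 was added, and mt-Atp6 went from 0.68 to 0.01. The remaining protein genes lay between -0.44 for mt-Nd1 and 0.60 for mt-Nd6. mt-Rnr1 and mt-Rnr2 stood at -2.23 and -2.35. Of 13 tRNA genes 8 were lower, down to -5.05 for mt-Tg, and 1, mt-Tt with 8 and 24 reads, was higher.

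The ratio between these libraries also ran with GC content over nuclear genes. The 15 long mitochondrial genes hold 31.9% to 41.1% GC, while the median of 8964 nuclear protein-coding genes in the trend was 50.2%. Of these, 361 genes with under 40% GC stood at a median of -1.19 on the log2 scale. Relative to the smoothed trend, and with copies included, the mitochondrial protein genes had a median of 1.15, and only mt-Co2 (-0.77) and mt-Co1 (-0.13) lay below it. mt-Nd4l (2.22) and mt-Nd6 (2.18) lay farthest above it. The rRNA genes lay below it, at -0.80 and -0.87. Among the 15 genes themselves Spearman's rho of GC content with the ratio was 0.21 with copies, a description over genes that share 2 libraries. mt-Atp8 and mt-Nd3 lie at a GC content below the lowest 2% bin shown, which holds 29 nuclear genes. So do the tRNA genes mt-Td, mt-Tr, mt-Tg, mt-Th, mt-Ta and mt-Tn, at 17.1% to 33.8% GC, which are among the 27 compared. Below that bin the trend rests on very few nuclear genes. For mt-Td and mt-Tr the trend was held at 1 end value, -1.92. The part of GC content in the values of the mitochondrial genes was not tested.

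**Figure D4:**
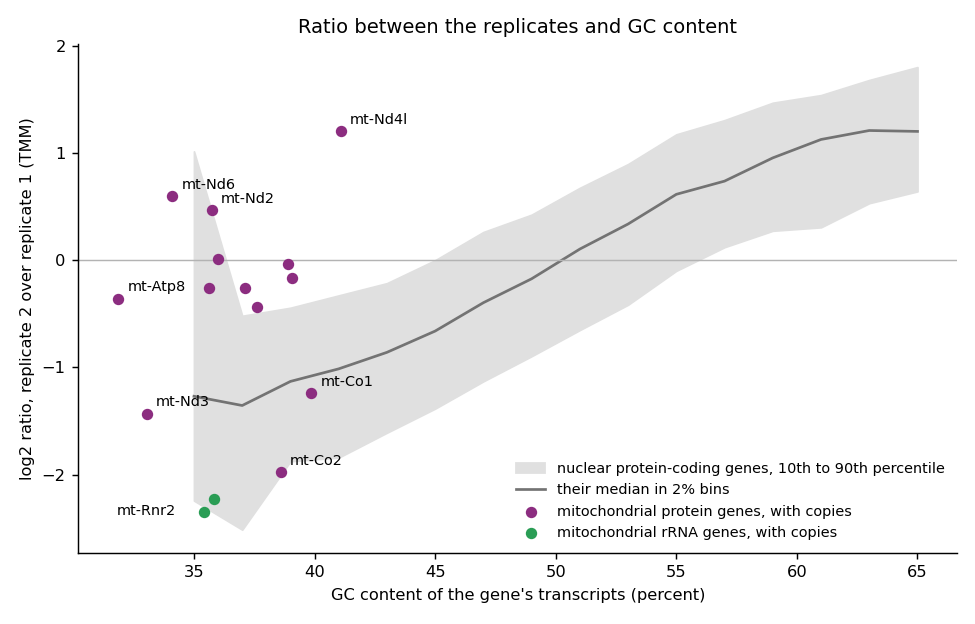
Log2 ratio of replicate 2 over replicate 1 against GC content. The grey band spans the 10th to 90th percentile of nuclear protein-coding genes in 2% bins and the grey line is their median, while points are the 13 protein and 2 rRNA genes with their copies. Most protein genes lie above the line and the rRNA genes lie below it.

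The listed nuclear genes that act on mitochondrial DNA and RNA or regulate mitochondrial biogenesis were nearly all expressed. Of 54 listed genes 49 reached 1 TPM in both libraries (90.7%, against 45.5% of 21474 protein-coding genes), with a median of 7.80 TPM. These were all 6 replication genes, all 4 genes of RNA cleavage, 10 of 11 of transcription, 14 of 15 of tailing, stability and turnover, 10 of 12 of RNA modification and 5 of 6 regulators of biogenesis. The highest was Grsf1, which encodes an RNA granule protein, with 131.6 and 29.1 TPM in replicates 1 and 2. It was followed by Fastk with 30.8 and 117 TPM, Hsd17b10, a subunit of the RNA-cleaving mitochondrial RNase P, with 55.6 and 81.8 TPM, Polg, the mitochondrial DNA polymerase, with 25.1 and 92.2 TPM, and the RNA exonuclease gene Rexo2 with 60.9 and 43.8 TPM. The lowest were the coactivator gene Ppargc1a (0.10 and 0.14 TPM), Fastkd2 (0.91 and 0.04) and the RNA methyltransferase gene Trmt61b (0.92 and 0.80).

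By the median with copies added, mitochondrial transcripts exceeded those of their nuclear partners in each complex. In complex I the median mitochondrial gene, with copies, was at 3817 and 4337 FPKM and the median of 7 nuclear subunit genes at 59.3 and 50.2 FPKM, a ratio of 64.3 and 86.4. In complex III mt-Cytb exceeded the median of 4 nuclear subunit genes by 221 and 109 times. In complex IV the ratio was 92.5 and 32.5, and in ATP synthase 731 and 350. With copies added, the lowest mitochondrial gene of each complex was above the highest listed nuclear partner in both libraries. Without copies this did not hold in complex IV. mt-Co3 alone stood at 0.466 and 0.912 FPKM, below the lowest partner at 23.7 and 36.4 FPKM, and mt-Co2 alone at 189 FPKM in replicate 2, below the highest partner at 762 FPKM.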

How the data were processed

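PolyA RNA of 1 group of 2 libraries was compared. The labels and the submitters' file lists name mm10 and the GENCODE M4 annotation. Aligner, quantification program and versions: not given in the sources used here. As the deposited files show, the authors deposited expected counts (estimated reads per gene, unscaled), TPM and FPKM, per the file headers. They also deposited posterior means, SDs and credibility bounds (read as signal values), whose level is not given. Expected counts were rounded for scaling only. Rows with a number for a name, which name no gene, held 0.0294% and 0.0465% of reads and entered the totals behind shares but not the scaling.

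Genes were placed with GENCODE M21 (42462 of 43346 matched). Nuclear copies were found with BLAST+ 2.17.0. Log2 ratios used edgeR 4.0.16 TMM factors with a prior count of 1, and DESeq2 1.42.0 size factors as an alternative. The calculation was also run on simulated counts with known changes. These held no GC trend and no split between gene and copy, so that run bears on neither. The GC trend is a lowess fit (span 0.3) over nuclear protein-coding genes that averaged 100 reads or more.

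Named are all protein and rRNA genes, the 6 highest tRNA genes by mean TPM, copies with a mean of at least 100 TPM, and the 5 highest and 3 lowest listed machinery genes. Other names, among them the copies Gm28439 and Gm10222 and mt-Tt and mt-Tp, were chosen after their values were seen. The members and lists were chosen with earlier results of these data known. Alternatives changed copies, length, estimate, scaling, filter, prior count, GC content and replicate.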

Additional observations from a re-analysis of the deposited data

How the results depend on the processing

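The mean share of TPM held by mitochondrial genes, 17.0%, became 25.3% with nuclear copies at 95% identity, 24.3% at 99% identity and 6.76% without mt-Atp8; without 1 replicate it ran from 15.7% to 18.2%. The share of reads, 7.92%, became 12.7% and 12.2% with copies at 95% and 99% identity. Of the 16 tRNA genes with reads in both libraries, 7 had at least 10 reads in both. The 15 of 27 genes that differed at least 2-fold between libraries became 7 with a mean of at least 100 reads required. Fewer genes enter at that filter, so the 2 counts have unlike denominators. The share over all genes at that filter is not given. The median log2 ratio of the protein genes, -0.31, became -0.055 when scaled by the total of reads and -0.12 on TPM. It turned to 1.03 with the GC trend removed and to 1.15 with the GC trend removed and copies added, an alternative chosen after seeing the data. At 10 TPM 19 machinery genes were detected in place of 49. Single levels moved by more than the spread between libraries in 4 of 15 genes with annotated length, 6 of 15 with the posterior mean TPM and 5 of 9 with copies. No paired analysis was possible because there is only 1 group. With 2 libraries, neither treatment effects nor the error of a ratio could be estimated, and depth left 9 tRNA genes under a mean of 10 reads.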
